A study of Homo sapiens with 6 samples.

Results

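The expression of 40 genes that characterise monocytes, macrophages and other phagocytes was examined in the eosinophilic leukaemia line EoL-1. The genes were taken from a fixed list of names that was chosen with earlier results of these data known. They comprised 12 surface receptors, 5 Fc receptors and adaptors, 11 secreted proteins, 9 lysosomal proteins and 3 subunits of the phagocyte oxidase. All 40 were found among the 35052 genes of the table, and 30 of them had enough reads to enter the test, which covered 12954 genes. Across the 6 libraries, 25 of the 40 genes averaged at least 1 CPM (read counts scaled to a common library size), 13 lay below 1 CPM, and CTSL and FCGR3A were listed at 0 reads in every library.

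RNA-seq was performed on polyA RNA from EoL-1, an established human cell line that the labels describe as eosinophil. Both groups carried a CRISPR/Cas9 knockout of JUN. The first group (n = 3 libraries) had the genotype JUN knockout, and the second (n = 3) had the genotype ATF3/JUN double knockout, so that the comparison asked what ATF3 knockout added in cells without JUN. The treatment note of all 6 samples mentions ATF3 knockout alone; guides and edited alleles are not stated in what was used here. Unedited EoL-1 cells were not analysed here. The labels number the libraries of each group 1 to 3 and do not say whether they came from separate cultures, so p-values measure the spread between these libraries, which may in part be technical. The names of the deposited files give the same-numbered libraries of the groups the same JUN clone code, and each library is therefore taken to stand for 1 clone.

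Monocytes and macrophages recognise microbes and dying cells through Toll-like, scavenger and Fc receptors, engulf them, kill them with the superoxide made by the NADPH oxidase, and break them down with cathepsins in lysosomes. Their growth depends on the receptor CSF1R, and their gene programme is driven by transcription factors such as PU.1 (SPI1), the C/EBP factors and IRF8. Eosinophils arise from the same myeloid progenitors and share the oxidase and many lysosomal proteins. JUN is the core subunit of AP-1, and ATF3 is a stress-induced factor that can pair with JUN on AP-1 and CRE-like sites.

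The depth was similar in all libraries, from 26146998 to 29567970 estimated reads, of which 3.58 to 3.71% belonged to transcripts that matched no gene and were left out. The targeted transcripts were still present: ATF3 measured 20.2, 13.7 and 8.89 CPM in JUN knockout libraries 1, 2 and 3 and 13.1, 10.0 and 7.63 CPM in the double knockout libraries. JUN measured 13.2, 27.2 and 24.6 CPM against 13.8, 16.6 and 25.7 CPM. Neither passed the test between the groups (edgeR adjusted p = 0.931 and 0.974). ATF3 was lower in the double knockout within each number, and with the number as a block its log2 difference was -0.44 (edgeR adjusted p = 0.394). Between the numbers, DESeq2 called both genes and edgeR neither (edgeR adjusted p = 0.0526 for ATF3 and 0.129 for JUN). The RNA level does not check an edit that leaves the transcript in place. Of 14 eosinophil markers only RNASE2 and RNASE3 reached 1 CPM, their summed level being 38 to 112 CPM in JUN knockout and 63.6 to 106 CPM in double knockout libraries, while CLC, EPX, PRG3, IL5RA, HDC and GATA1 were listed at 0. Of the monocyte and macrophage markers 7 of 15 reached 1 CPM (summed 252 to 563 CPM in JUN knockout and 324 to 639 CPM in double knockout libraries). Of the neutrophil markers 4 of 11 did, with ELANE, PRTN3, AZU1, LTF and LCN2 listed at 0. The neutrophil markers summed to 469 to 605 CPM and 603 to 839 CPM, most of it from PRSS57 (mean 550 CPM). These ranges overlapped those of the monocyte and macrophage markers in both groups. CPM does not account for transcript length, so the sums do not rank the cell types. Markers of T and NK cells, B cells, the erythroid and megakaryocyte lineages, dendritic cells and fibroblasts or epithelium reached 1 CPM for 2 of 8, 1 of 5, 0 of 8, 3 of 8 and 1 of 6 genes. Dendritic cell markers summed to 176.5 to 305 CPM in JUN knockout and 228 to 306 CPM in double knockout libraries, led by FLT3. T and NK cell markers summed to 86.1 to 93.2 CPM and 99.6 to 117 CPM, led by NKG7. The sums of the remaining lists were at most 8.97 CPM.

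The promoters of 31 members were present in the RefSeq table (GRCh38.p14), as 44 start sites. In the 250 bases before each start, the AP-1 element TGANTCA was found in 4 member promoters, 9.09% of them, against 6.57% of all 35116 promoters. The ATF/CRE element TGACGTCA was found in 0 of the 44 and in 1.65% of all. For PU.1 the letters GAGGAAGT were found in 2 member promoters (4.55%, against 2.17% of all), and the C/EBP letters TTGCGCAA and the lysosomal CLEAR letters TCACGTGA in none (0.131% and 0.854% of all). Both strands were searched, and TGANTCA, TGACGTCA, TTGCGCAA and TCACGTGA read the same on either strand. The matches are shown because AP-1 is the site that JUN and ATF3 share and PU.1 is the myeloid factor. Capitals mark the motif, sequences run 5′ to 3′ on the gene's strand, and ACTTCCTC is GAGGAAGT read from the opposite strand. AP-1 letters were found at chr5:140633381-140633409 for CD14, chr5:150113382-150113410 for CSF1R (before the outer of 2 starts), chr17:7579527-7579555 for CD68 and chr7:23246630-23246658 for GPNMB.
CD14 (minus strand): cctggggcgccTGAGTCAtcaggacactg
CSF1R (minus strand): ccaggtccaggTGAGTCAtgatcaggccc
CD68 (plus strand): gctgaggccccTGAGTCAggctgtgggtg
GPNMB (plus strand): ccaagaaggagTGAGTCAtaagcacatga
PU.1 letters were found at chr9:117704219-117704248 and chr9:117704291-117704320 for TLR4 and at chr19:35908296-35908318 for TYROBP.
TLR4, distal match (plus strand): ttcttcttctaACTTCCTCtcctgtgacaa
TLR4, proximal match (plus strand): ttgccgctttcACTTCCTCtcaccctttag
TYROBP (minus strand): acccgcctcagACTTCCTCcttc
A match describes these letters and is not a binding site. The 4 genes with AP-1 letters included 2 that these JUN knockout and double knockout libraries hardly expressed (CD14 and GPNMB) and 2 that they expressed (CSF1R and CD68). The windows of CD14, CD68, GPNMB and TLR4 also lie within an annotated transcript of the same gene.

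These EoL-1 knockout libraries expressed all 3 oxidase members, 7 of the 9 lysosomal members and 6 of the 12 receptors. Of the lysosomal genes outside the members, 29 of 33 also reached a mean of 1 CPM. The C1q chains and all 4 scavenger receptors of the list had a mean below 1 CPM. Levels of different genes are compared on TPM, the authors' abundance value, which accounts for transcript length. CYBA, the membrane subunit p22phox that stabilises the oxidase, led with a mean of 550 TPM (507 to 612 over the 6 libraries), above 98.5% of the 11602 genes with at least 1 CPM. LYZ, the secreted enzyme lysozyme, followed with 183 TPM, but its libraries spread from 74.7 to 283 TPM. CST3, the cathepsin inhibitor cystatin C, and GRN, the lysosomal growth factor progranulin, had means of 154 and 120 TPM. The order of LYZ, CST3 and GRN is not resolved, because their ranges overlap.

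**Figure D1:**
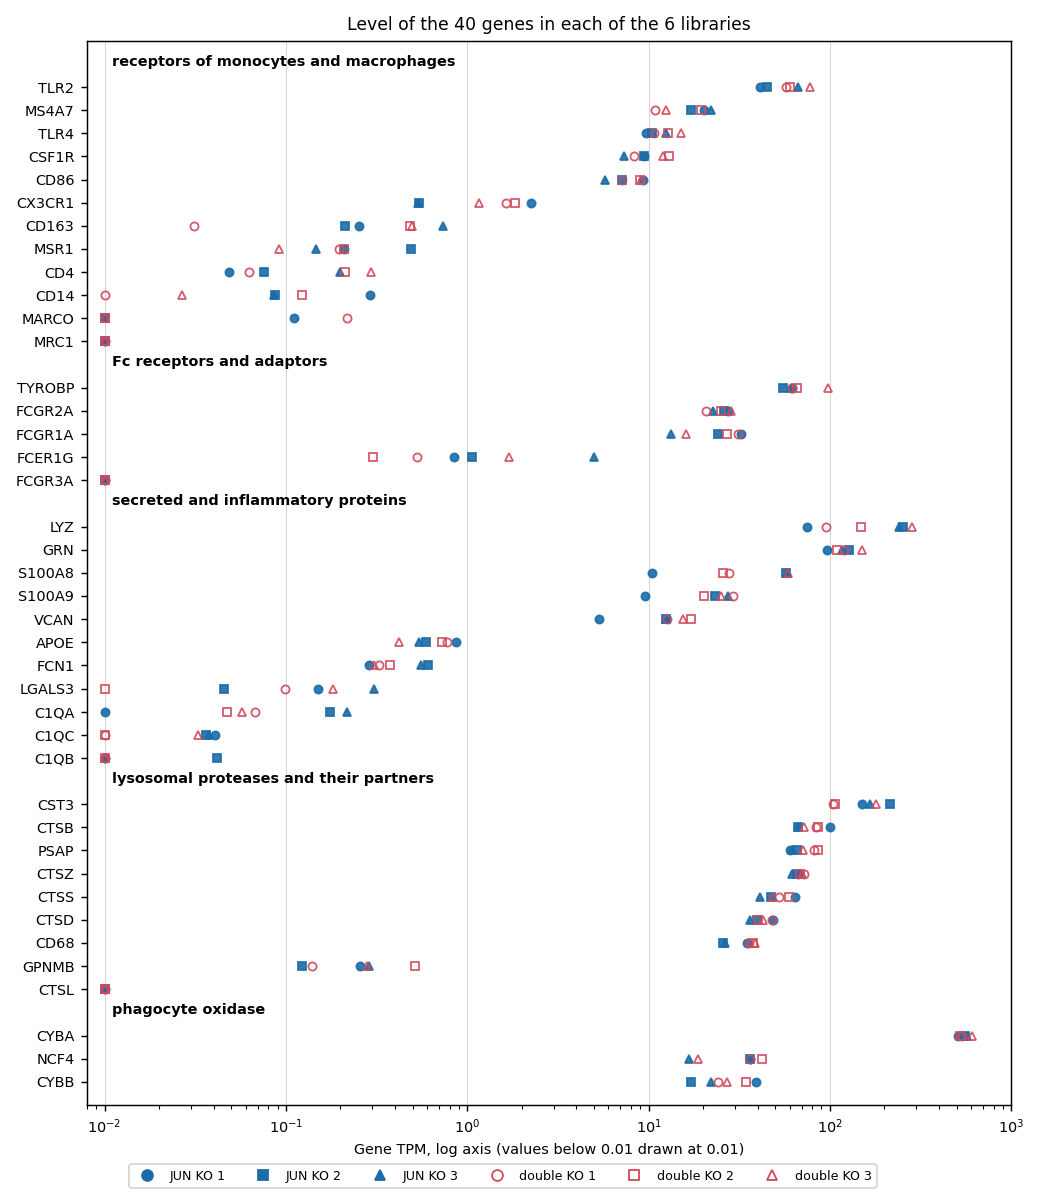
Level of each of the 40 genes in TPM on a log axis, grouped by role, with 1 point per library (filled symbols for the 3 JUN knockout, open symbols for the 3 double knockout libraries) and values below 0.01 TPM drawn at 0.01. CYBA stands above all other genes, LYZ and S100A8 spread widely, and CTSL and FCGR3A sit at the left edge in all 6 libraries.

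Among lysosomal members, CTSB averaged 79.2 TPM, PSAP 71.1, CTSZ 67.6, CTSS 52.4, CTSD 42.7 and CD68 33.2 TPM. CTSB, CTSS and CTSZ are cysteine proteases and CTSD an aspartic protease of the lysosome, PSAP is the precursor of the saposins that help degrade sphingolipids, and CD68 is a lysosomal membrane glycoprotein used as a macrophage marker. CTSB, PSAP and CTSZ overlapped in range and cannot be ranked. CTSL, another lysosomal cysteine protease, was listed at 0 in all 6 libraries although all 6 of its annotated transcripts were in the table. A count of 3 reads, the limit that 0 reads allow for counting error only, corresponds to 0.106 to 0.121 CPM in a library. Whether the exact 0 of CTSL, FCGR3A and the lineage markers reflects absent RNA or the estimation of transcript counts was not tested. GPNMB, a glycoprotein of lipid-laden macrophages, totalled 54 reads.

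Of the 12 receptors, 6 were expressed. TLR2, which senses bacterial lipoproteins, had the highest mean level of them (58.0 TPM), followed by MS4A7 (17.0 TPM), TLR4, the receptor for lipopolysaccharide (11.9 TPM), CSF1R (9.92 TPM) and CD86, the T cell co-stimulator (7.89 TPM). The fractalkine receptor CX3CR1 was at 1.33 TPM. The range of MS4A7 overlapped those of TLR4 and CSF1R, the ranges of TLR4 and CSF1R overlapped, and so did those of CSF1R and CD86, so that the order of these neighbours is not resolved. CD14, the co-receptor that hands lipopolysaccharide to TLR4 and a defining marker of classical monocytes, measured 0.0735, 0.144 and 0.115 CPM in JUN knockout and 0, 0.190 and 0.0353 CPM in double knockout libraries. These CD14 values come from 15 reads in all, so TLR4 was expressed in every library with CD14 at or near the limit of detection. The scavenger receptors CD163, MRC1, MSR1 and MARCO totalled 48, 2, 94 and 3 reads, and CD4 62 reads.

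CSF1R has 2 known ligands, and they were low. CSF1 measured 3.57, 3.02 and 1.5 CPM in JUN knockout and 3.94, 4.62 and 3.32 CPM in double knockout libraries, and IL34 had 1 read in all. The reads of CSF1R were not all assigned to its main coding transcript. CSF1R-201 held 46.2 to 92.0% of them by library, and a transcript annotated for nonsense-mediated decay held 42.1% in JUN knockout library 1 and 31.6% in double knockout library 1. That split is an estimate by Salmon, with the lower CSF1R-201 shares in the number 1 libraries of both groups.

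Among Fc receptors and adaptors, TYROBP (DAP12), the adaptor that couples activating receptors to kinases, averaged 67.2 TPM. FCGR2A, a low-affinity IgG receptor, averaged 25.1 TPM and FCGR1A, the high-affinity one, 24.0 TPM. FCGR3A was listed at 0, as was its near-identical copy FCGR3B. FCER1G, the gamma chain on which FCGR1A depends for its signal, totalled 99 reads and lay below 1 CPM. Its mean of 1.57 TPM (0.302 to 4.98 by library) was above CX3CR1 (1.33 TPM) and FCN1 (0.410 TPM), which reached 1 CPM. The ranges overlapped, and the limit in CPM does not account for transcript length. FCGR1A levels are uncertain because its copies FCGR1BP (mean 8.14 CPM) and FCGR1CP (1.77 CPM) share sequence with it. FCGR2A likewise shares sequence with FCGR2C (3.50 CPM) and FCGR2B (6.85 CPM).

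Of the 11 secreted proteins 6 were expressed, and the 5 others were mainly products of mature macrophages. The complement C1q chains C1QA, C1QB and C1QC had 11, 1 and 4 reads, LGALS3 (galectin-3) had 17 and APOE 96. S100A8 and S100A9, which form the calprotectin heterodimer, averaged 39.8 and 22.5 TPM, the matrix proteoglycan VCAN 12.6 TPM, and the lectin FCN1 (ficolin-1) 0.410 TPM. APOE, although below 1 CPM, averaged 0.654 TPM, with a range that overlapped that of FCN1. All 3 oxidase members were expressed. The catalytic subunit CYBB (gp91phox) averaged 27.5 TPM and the cytosolic subunit NCF4 (p40phox) 31 TPM, and their ranges overlapped. Across the remaining oxidase genes, 9 of 9 reached 1 CPM. RAC2, the small GTPase of the complex, averaged 342 CPM, whereas NCF1 (p47phox) measured 2.81 to 4.84 CPM over the 6 libraries. NCF1 reads are uncertain because the pseudogenes NCF1B and NCF1C resemble it.

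Many of the expressed members varied widely between libraries. In 11 of the 25 the highest of the 6 libraries, taken over both genotypes, was at least 2 times the lowest, a share of 44.0%, where 12.7% of the 11602 genes with at least 1 CPM varied that much. Leaving out JUN knockout library 1 reduced the members to 6 (and all genes to 9.53%); leaving out any other library gave 9 to 11. For TLR2 and CST3 the highest and the lowest library were of different genotypes, and neither genotype alone reached a ratio of 2. By role, a ratio of at least 2 was reached by 5 of 6 expressed secreted proteins (median ratio 3.03) and by 1 of 7 expressed lysosomal genes (median 1.33, with CTSZ lowest at 1.16). JUN knockout library 1 held the lowest value of 10 of the 25 members, a share of 40% against 26.02% of all expressed genes. Double knockout library 3 held the highest value of 11, a share of 44.0% against 16.1%. In these bulk samples, fewer cells of a type and less RNA per cell cannot be told apart.

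**Figure D2:**
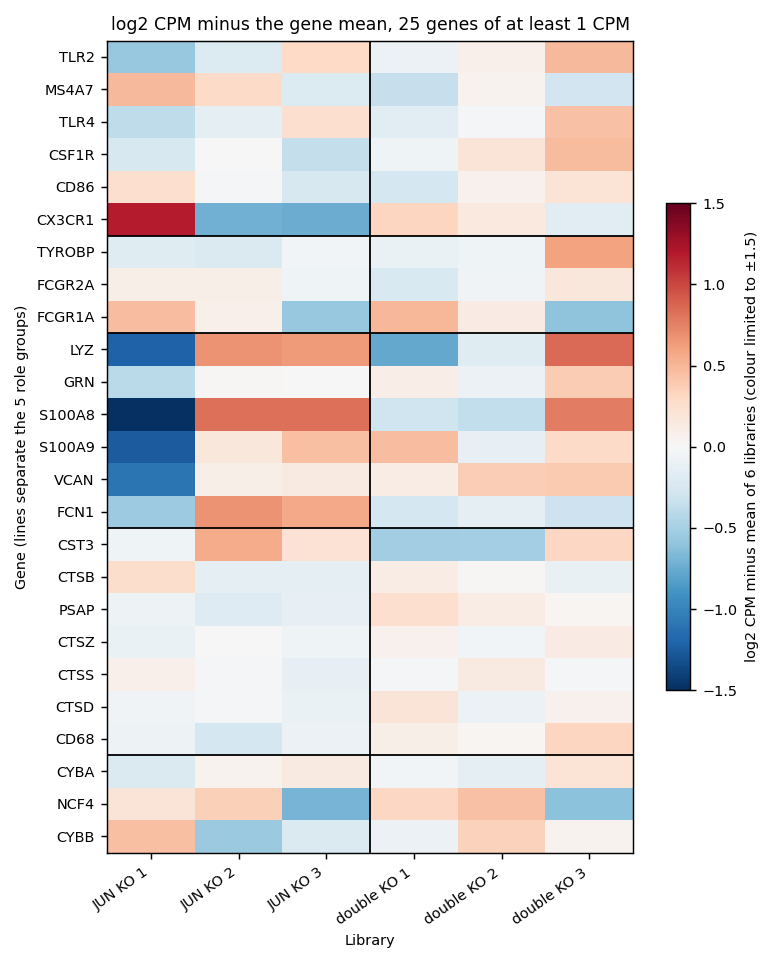
Each expressed member in each library, as log2 CPM relative to its own mean over the 6 libraries (colour, limited to 1.5 in either direction), with members in rows grouped by role and libraries in columns. LYZ, S100A8, S100A9 and VCAN are low in JUN knockout library 1, while the lysosomal rows other than CST3 stay near their means.

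LYZ was among the most variable members. Its level (ENSG00000090382, chr12:69348341-69354234, plus strand) was 102, 380 and 371 CPM in JUN knockout libraries 1, 2 and 3 and 140, 210 and 430 CPM in double knockout libraries 1, 2 and 3. Both number 1 libraries were low, and JUN knockout library 2 and both number 3 libraries were high. Double knockout library 2 lay between. The main transcript held 99.4 to 99.8% of LYZ reads in each library, so the spread was in the level and not in the isoform.

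S100A8 measured 2.83, 16.7 and 16.7 CPM in JUN knockout and 7.68, 7.32 and 16.1 CPM in double knockout libraries, a ratio of 5.90 between the highest and the lowest. S100A9 measured 3.34, 8.89 and 10.8 CPM against 10.9, 7.28 and 9.65 CPM. VCAN measured 31.4, 71.0 and 73.2 CPM against 72.2, 86.4 and 88.1 CPM. S100A8 was low in JUN knockout library 1 and in double knockout libraries 1 and 2, and its other libraries lay at 16.1 to 16.7 CPM. LYZ and CST3 were lower in the same libraries than in the others, while S100A9, VCAN and FCN1 did not split in this way. JUN knockout library 1 was the lowest of the 6 for S100A8, S100A9 and VCAN, and the other 5 libraries of S100A9 and VCAN lay close together. FCN1, with 2.28, 5.32 and 4.93 CPM against 2.77, 3.03 and 2.69 CPM, was also lowest there. The eosinophil marker RNASE2 moved with them, at 30.3, 79.0 and 95.8 CPM against 67.7, 52.8 and 87.3 CPM; its part in these results was not tested.

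CX3CR1 had the opposite profile, with 6.98, 1.87 and 1.85 CPM in JUN knockout and 3.86, 3.41 and 2.76 CPM in double knockout libraries. JUN knockout library 1 was its highest. CYBB also peaked there, with 165, 82.4 and 104 CPM against 114, 154 and 126 CPM.

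Whether same-numbered libraries resembled each other was tested with the replicate number in the model beside the genotype. The edgeR F test asks whether the 3 numbers differ. It called 4 of the 30 tested members (13.3%), namely NCF4, FCGR1A, TLR2 and TLR4, at an adjusted p under 0.05, where 1.75% of all genes tested were called. DESeq2 called 5, adding VCAN (DESeq2 adjusted p = 0.0168), against 7.5% of the 11949 genes to which it gave an adjusted p. The members CD163, MSR1, FCER1G, APOE and GPNMB were given none. At an unadjusted p under 0.05, edgeR gave 11 of 30 members and 20.0% of all genes.

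NCF4 had the lowest p of the members for the number term. It (ENSG00000100365, GRCh38, chr22:36860988-36878015, plus strand) measured 45.9, 51.1 and 24.8 CPM in JUN knockout libraries 1, 2 and 3 and 49.7, 54.4 and 26.2 CPM in double knockout libraries 1, 2 and 3. Both number 3 libraries were the lowest in their group. Number 3 was below number 2 by a log2 difference of -1.05, a fold of 2.07, and below number 1 by -0.91 (95% interval -1.14 to -0.68; edgeR adjusted p = 0.00809 for the number term). The call was lost without double knockout library 3 (adjusted p = 0.0621).

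FCGR1A (ENSG00000150337, chr1:149782671-149792518, plus strand) measured 19.8, 15.2 and 9.78 CPM in JUN knockout and 20.5, 15.8 and 9.54 CPM in double knockout libraries. Again both number 3 libraries were lowest, and the groups matched number by number. Number 3 lay below number 1 by a log2 difference of -1.06 (95% interval -1.37 to -0.76, a fold of 2.09; edgeR adjusted p = 0.0257). With the reads of FCGR1BP added, the ratio of number 3 to number 1 was 0.424. The call was lost without JUN knockout library 3 or double knockout library 3 (adjusted p = 0.0913 and 0.149).

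The Toll-like receptors ran the other way. TLR2 (ENSG00000137462, chr4:153684070-153705702, plus strand) measured 89.3, 114 and 163 CPM in JUN knockout and 125, 140 and 185 CPM in double knockout libraries. TLR4 (ENSG00000136869, chr9:117704175-117724730, plus strand) measured 62.4, 74.0 and 96.8 CPM against 73.0, 79.8 and 110 CPM. Number 3 was highest in both groups for both receptors. It exceeded number 1 by 0.72 on the log2 scale for TLR2 (95% interval 0.47 to 0.97, 1.65-fold; edgeR adjusted p = 0.0412) and by 0.61 for TLR4 (0.39 to 0.84, 1.53-fold; adjusted p = 0.0440). Both calls were lost without JUN knockout library 3 (adjusted p = 0.257 for TLR2 and 0.245 for TLR4), without double knockout library 2 (0.0552 and 0.0595) or without double knockout library 3 (0.127 and 0.323). Modelling transcript length as an offset also ended the calls of TLR2, TLR4 and FCGR1A (adjusted p = 0.131, 0.185 and 0.117) and left NCF4 as the single called member.

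**Figure D3:**
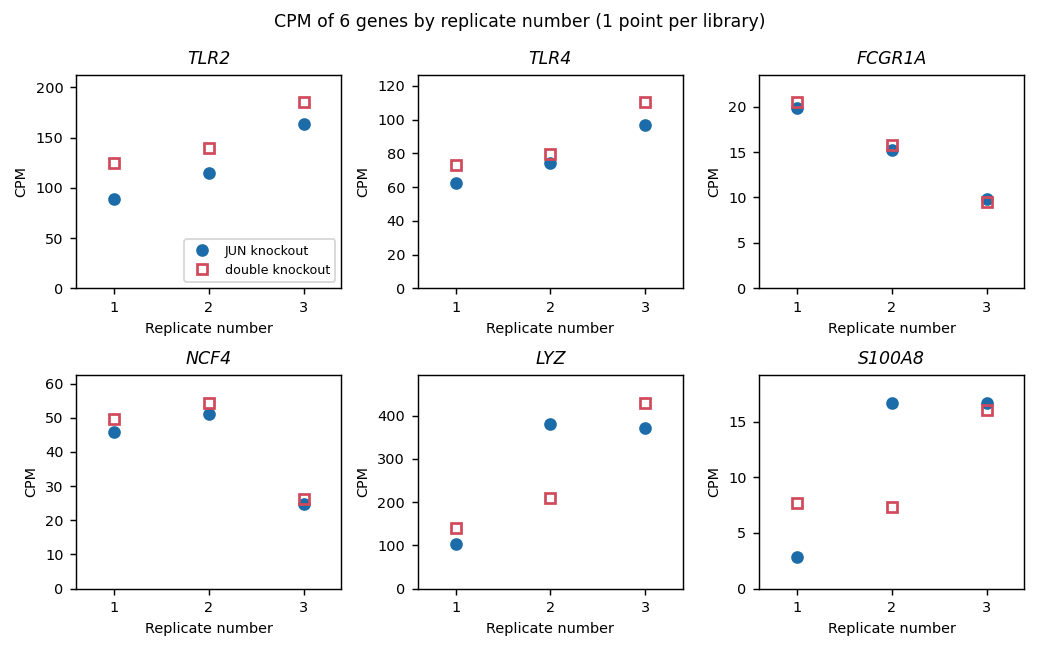
CPM of 6 members by replicate number, with 1 filled point per JUN knockout library and 1 open square per double knockout library. NCF4 and FCGR1A are lowest and TLR2 and TLR4 highest in both number 3 libraries, while LYZ is low in both number 1 libraries.

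LYZ did not pass in this test (edgeR adjusted p = 0.207), since its number 2 libraries differed from each other. Without JUN knockout library 2 or double knockout library 2 it did pass, but each of these fits leaves number 2 with 1 library. The number 2 libraries then cannot disagree, so these fits do not decide whether LYZ differs by number. CSF1R, PSAP, CD68, CTSS and CTSZ gave adjusted p values from 0.409 to 0.953 for the number term.

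None of the 30 tested members differed between double knockout and JUN knockout by edgeR's quasi-likelihood test (lowest adjusted p = 0.789), and 0.0% of all 12954 genes did. Nor was any member called by DESeq2, which called 0.548% of all genes. At an unadjusted p under 0.05, edgeR gave 3 members (PSAP, CD68 and CSF1R) where 5.81% of all genes passed. The fitted log2 fold change was above 0 for 17 of the 30 and below 0 for 13, where 50.7% of all genes were above 0. Its median was 0.02, against 0.003 over all genes. For 19 of the 30 members the 95% interval lay within -1 to 1, against 83.5% of all genes, so a change of 2-fold or more was outside the interval for those and not for the other 11. These intervals come from the fit of the genotype alone, in which spread between the numbers counts as error. Members with few reads or wide library spread, such as FCER1G, LYZ and S100A8, had the wide intervals.

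PSAP had the lowest p of the members. It (ENSG00000197746, chr10:71816298-71851375, minus strand) measured 133, 122 and 129 CPM in JUN knockout and 166, 151 and 142 CPM in double knockout libraries, and the groups did not overlap. The log2 fold change was 0.26 (SE 0.09, 95% interval 0.06 to 0.46; edgeR adjusted p = 0.789). CD68 (ENSG00000129226, chr17:7579467-7582113, plus strand) measured 40.7, 35.8 and 40.5 CPM against 45.6, 43.9 and 53.8 CPM, also without overlap (log2 fold change 0.29, SE 0.11; edgeR adjusted p = 0.838). These 2 were the members whose groups did not overlap, 6.67% of the 30, where 12.3% of all genes did not overlap in either direction 6.31% being higher and 5.94% lower in the double knockout.

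CSF1R (ENSG00000182578, chr5:150053291-150113372, minus strand) measured 21.3, 25 and 19.6 CPM in JUN knockout and 23.9, 28.7 and 34.7 CPM in double knockout libraries. It was higher in the double knockout within each of the 3 numbers, but the groups overlapped. The log2 fold change was 0.41 (SE 0.16, 95% interval 0.02 to 0.80; edgeR adjusted p = 0.854). MS4A7 measured 34.0, 29.5 and 21.1 CPM against 19.1, 25.2 and 19.9 CPM, lower in the double knockout within each number. That difference, -0.40 on the log2 scale with an SE of 0.20, did not pass the test (edgeR adjusted p = 0.889).

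**Figure D4:**
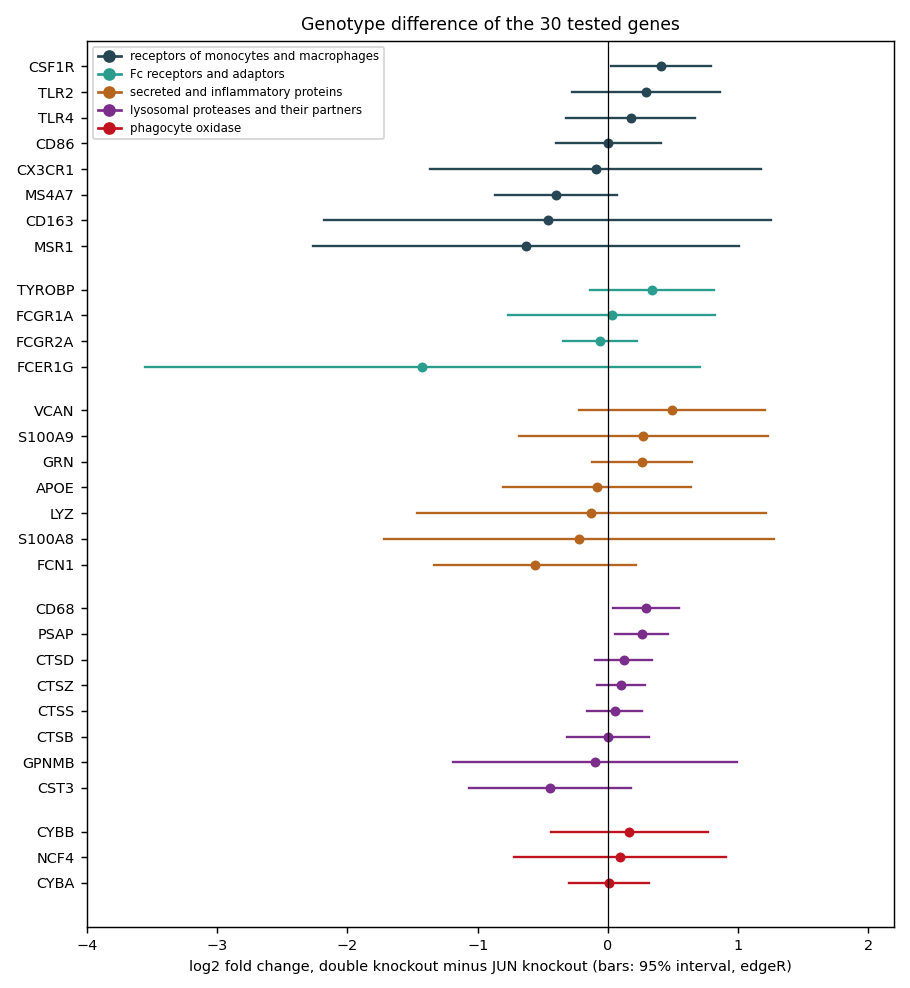
Log2 fold change of each tested member in the double knockout relative to the JUN knockout, with its 95% interval from edgeR (n = 3 libraries per group). PSAP, CD68 and CSF1R have intervals just above 0, and none of the 30 has an adjusted p under 0.05.

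The other lysosomal members lay near 0 or had overlapping groups. CTSB measured 188, 143 and 142 CPM against 170, 158 and 145 CPM, CTSS 97.3, 90.8 and 84.5 CPM against 90.7, 102 and 90.3 CPM, and CTSZ 89.0, 95.2 and 91.2 CPM against 99.6, 92.5 and 104 CPM. The 95% intervals of their log2 fold changes were -0.31 to 0.31, -0.16 to 0.27 and -0.08 to 0.29, so these proteases were measured tightly enough to limit any difference. CST3 measured 96.8, 149 and 118 CPM against 70.7, 70.8 and 126 CPM (log2 fold change -0.44, SE 0.26; edgeR adjusted p = 0.919). The lowest CST3 values were those of double knockout libraries 1 and 2, followed by JUN knockout library 1. Over the 8 tested lysosomal members, 5 were above 0 and the median was 0.08.

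The secreted proteins gave a median of -0.08 over 7 tested genes, with 3 above 0, none of which passed. For LYZ the log2 fold change was -0.13 (SE 0.57, 95% interval -1.47 to 1.21; edgeR adjusted p = 0.988), and for S100A8 it was -0.22 (SE 0.63). For both genes a difference of 2-fold in either direction lay inside the interval. FCN1 gave -0.56 (SE 0.33; edgeR adjusted p = 0.910). GRN measured 113, 152 and 151 CPM against 160, 142 and 196 CPM. The groups overlapped, and the fitted difference was 0.26 (SE 0.16).

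The receptors gave 4 above 0 of 8 tested (median -0.05) and the Fc group 2 of 4 (median -0.02). TLR2 was higher in the double knockout within each number, by 0.29 on the log2 scale (SE 0.24; edgeR adjusted p = 0.947), or 0.32 with the number as a block (adjusted p = 0.384). TYROBP measured 21.3, 20.8 and 23.6 CPM against 22.6, 23.2 and 36.9 CPM (log2 fold change 0.34, SE 0.20; edgeR adjusted p = 0.919). Its high value was that of double knockout library 3 alone.

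The 3 oxidase members all lay above 0, with a median of 0.10 and no call. CYBA measured 255, 307 and 325 CPM against 286, 268 and 340 CPM (log2 fold change 0.01, 95% interval -0.30 to 0.32). CYBB gave 0.16 (SE 0.26) and NCF4 0.10 (SE 0.34). For NCF4 the log2 genotype difference within numbers 1, 2 and 3 was 0.113, 0.091 and 0.079, small beside the difference between numbers. The SE of NCF4 includes that difference between numbers.

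Genes of the same pathways were read from wider lists. Of 32 tested lysosomal genes outside the members, 22 lay above 0, with a median log2 fold change of 0.11, and edgeR called none. In 8 of the 32 (25%) the groups did not overlap, 7 of them higher in the double knockout (among them LAMP2, GAA, LIPA, SCARB2 and TPP1) and 1 lower (MCOLN1), where 12.3% of all genes did not overlap and 6.31% were higher. GAA, which degrades lysosomal glycogen, measured 26.9, 29.1 and 28.3 CPM in JUN knockout and 36.5, 36.2 and 35.9 CPM in double knockout libraries. The log2 fold change of GAA was 0.36 (SE 0.08; edgeR adjusted p = 0.674, DESeq2 adjusted p = 0.0301). TPP1, a lysosomal peptidase, measured 104, 119 and 125 CPM against 145, 162 and 159 CPM (0.42, SE 0.10; edgeR adjusted p = 0.674, DESeq2 adjusted p = 0.0317). Both were called by DESeq2, which called 0.548% of all genes, and not by edgeR. MCOLN1, a lysosomal calcium channel, gave -0.40 (SE 0.15; edgeR adjusted p = 0.852).

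Of 18 tested genes of Toll-like receptor signalling, 11 lay above 0 (median 0.02) and edgeR called none for the genotype. IRAK1, a kinase of the pathway, measured 186, 184 and 197 CPM against 245, 217 and 251 CPM (log2 fold change 0.33, SE 0.09; edgeR adjusted p = 0.789, DESeq2 adjusted p = 0.0924). LY96 (MD-2), the partner of TLR4 in binding lipopolysaccharide, measured 2.27 to 5.15 CPM over the 6 libraries. TLR9 differed by number (edgeR adjusted p = 0.0257), being listed at 0 in both number 3 libraries, where TLR2 and TLR4 were highest. Of 29 tested genes of Fc receptor and phagocytic signalling, 18 lay above 0 (median 0.05) and edgeR called none.

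Of 16 tested monocyte genes outside the members, 11 lay above 0 (median 0.08) and edgeR called none. CCR2, the chemokine receptor that draws monocytes from the marrow, measured 119, 137 and 140 CPM in JUN knockout and 164, 179 and 172 CPM in double knockout libraries. The groups did not overlap, and the log2 fold change of CCR2 was 0.38 (SE 0.09; edgeR adjusted p = 0.697, DESeq2 adjusted p = 0.0447). For the number term edgeR called 3 of the 16, CLEC12A, MNDA and MPEG1, against 1.75% of all genes. MNDA, a nuclear antigen of myeloid cells, measured 2.13, 2.88 and 12.9 CPM against 3.70, 2.84 and 12.2 CPM (edgeR adjusted p = 0.01), with both number 3 libraries high.

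Of 26 transcription factors of myeloid cells and lysosomes, 18 were expressed and 2 were listed at 0. SPI1 measured 162, 187 and 193 CPM in JUN knockout and 186, 160 and 208 CPM in double knockout libraries. Of the 20 tested, 17 lay above 0 (median 0.14) and edgeR called none. In 5 (25%) the double knockout was higher without overlap, against 6.31% of all genes. CEBPA, the C/EBP factor of the myeloid lineage, gave 0.31 (SE 0.10; edgeR adjusted p = 0.789) and RUNX1 0.31 (SE 0.09; edgeR adjusted p = 0.789). CEBPB was called by number, with 69.8, 42.5 and 22.8 CPM against 62.2, 49.1 and 28.1 CPM (edgeR adjusted p = 0.00998). IRF8 was lowest in both number 1 libraries, with 131, 223 and 252 CPM against 169, 209 and 255 CPM, and missed the threshold (edgeR adjusted p = 0.0587). CEBPB and IRF8 therefore had opposite orders over the numbers in both groups.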

How the data were processed

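RNA-seq of 6 EoL-1 libraries (3 JUN knockout, 3 ATF3/JUN double knockout) was quantified by the authors with Salmon 1.6.0 on hg38, with FastQC 0.11.9 also named, per the submitters' processing notes. Each deposited table gives an estimated count and a TPM value per transcript, per the file headers. Of 177456 transcripts, 167027 (94.1%) matched GENCODE 29 by identifier, and each gene's estimated count is the rounded sum over its transcripts; gene TPM is the sum of the deposited transcript TPM. The deposited libraries hold 26146998 to 29567970 estimated reads each, and intervals cover counting error and library spread only as far as 3 libraries per group show it. In R 4.3.3, edgeR 4.0.16 was run with its default low-count filter, TMM scaling and robust quasi-likelihood fits over 12954 genes, two-sided, with Benjamini-Hochberg adjustment over all of them and a threshold of 0.05. CPM values use TMM library sizes, and a fitted fold change is on the log2 scale of counts. The genotype was fitted alone. The replicate number was tested together with the genotype by an F test. Numbers were taken to pair the samples because same-numbered libraries share a clone code in the file names and their deviations from the group means correlated by 0.387, 0.103 and 0.523 for numbers 1, 2 and 3. The number 2 value is not specific to that pair: JUN knockout library 1 with double knockout library 2 gave 0.201, and JUN knockout library 2 with double knockout library 3 gave 0.103. A chi-square per gene, which grows with the difference between libraries, was 12.3 to 22.3 among JUN knockout library 1 and double knockout libraries 1 and 2. Among JUN knockout libraries 2 and 3 and double knockout library 3 it was 13.5 to 20.2. Pairs across these sets gave 30.4 to 72.5, with the number 2 pair at 30.4. The libraries thus also split across both genotype and number, and the cause was not tested. DESeq2 1.42.0 and limma 3.58.1 (voom, or log2 of TPM with a pseudocount of 0.1), other filters and scaling, a length offset and leaving out libraries were alternatives, 1 of them, the library spread without each library, added after the values were seen. The tests were also run on simulated counts. The simulated genotype runs held no effect shared by same-numbered libraries, so they do not cover that feature of the data. Promoters and their motifs were read from RefSeq (GRCh38.p14); NCF4, LYZ, PSAP, CTSB, CD4, MSR1, CTSS, MRC1 and C1QC were not matched there.

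The members and the lists were chosen with earlier results of these data known. Values in every library are given for the 10 members highest in TPM, the 6 with the lowest p for genotype and for number, the 8 with the largest ratio between libraries, and CD14, CSF1R, LYZ, CD68 and CYBB. From the wider lists, genes that passed, the highest and those with the lowest p were eligible; others named there were chosen after their values were seen, and some genes of those lists are not reported here.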

Additional observations from a re-analysis of the deposited data

How the results depend on the processing

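No member was called for the genotype under any of the 19 alternatives, and the lowest adjusted p over the named members and alternatives was 0.384. With the replicate number as a block, the pairing changed no call: 0 members and 0 genes were called, and the median log2 fold change was 0.04. Over all genes the genotype gave 0 calls with the main settings, 1 without the low-count filter, 71 with DESeq2, 4 with limma-voom, 1 without both number 3 libraries and 3 on TPM. The members' median log2 fold change, 0.02, was 0.093 with a filter of 1 CPM, 0.11 with the length offset, 0.067 with limma-voom, 0.085 and 0.088 without both number 1 or both number 2 libraries, 0.12 with the block and offset together and 0.12 on TPM. Leaving out each library gave medians from -9.755e-05 to 0.10. The number term called 4 members, and 1 with the length offset; leaving out libraries gave 0 to 12, with 12 without double knockout library 1, 0 without double knockout library 3 and 1 without JUN knockout library 3. Over all genes it called 227, 686 without the filter, 61 with the offset, 896 with DESeq2 and 141 to 2634 without each library. Members with a 2-fold spread numbered 6 to 11 without each library.

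Log2 fold changes of some members near 0 changed sign. With the TPM fit, limma-voom, the block, the block with offset and the offset alone, CTSB became 0.072, 0.0087, 0.0086, 0.071 and 0.058, and CX3CR1 0.72, 0.19, 0.16, 0.79 and 0.52. With the TPM fit, limma-voom and the block with offset, S100A8 became 0.089, 0.083 and 0.037. FCGR1A became -0.00208 with limma-voom. Leaving out each library, or both libraries of a number, gave ranges of -0.082 to 0.15 for CTSB, -0.018 to 0.13 for CTSS, -0.43 to 0.84 for CX3CR1, -0.095 to 0.085 for CYBA and -0.18 to 0.58 for CYBB. The ranges were -0.24 to 0.29 for FCGR1A, -0.70 to 0.26 for LYZ, -0.16 to 0.36 for NCF4, -0.69 to 0.28 for S100A8, -0.22 to 0.60 for S100A9 and -0.025 to 0.36 for TLR4. The cause was not tested. At 3 libraries per group and 15 to 99 reads in all, the intervals of CD163, MSR1 and FCER1G include differences of more than 2-fold, and CD14 was not tested.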
